A study of Mus musculus with 10 samples.

Results

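The NMDA receptor subunits are 7 mouse genes, Grin1, Grin2a, Grin2b, Grin2c, Grin2d, Grin3a and Grin3b. They were taken as all non-control probes whose RefSeq transcript accession belongs to one of these genes, which gave 10 of 41174 probes and 6 of the 18539 genes represented on the array. Grin2b had 5 probes, and Grin1, Grin2a, Grin2c, Grin2d and Grin3b had 1 each. No probe was matched to Grin3a, which was not analysed here. The values come from the left hemibrains (all cell types together) of 10 male C57BL/6J mice that entered the study at 3 weeks of age, were housed singly, and ate either a standard diet (SD) or an n-3 PUFA enriched diet (FD, fish oil) until 5 months of age, about 20 weeks. Hemibrain RNA was labelled with Cy-5 and a second RNA with Cy-3 on a 2-colour whole-genome array. Each array is named here by its mouse, from C10-413 to C10-437.

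The labels give FD for the Cy-5 RNA of all 10 arrays and also call them controls, while the design speaks of both diets and the methods describe FD and SD mice. The diet of each array was therefore not settled, no diet comparison was made, and values are given per array or as a range and median over the arrays. The labels call the Cy-3 RNA pooled SD hemibrain and the methods call it a commercial reference RNA. Against the label, all 10 of 10 neuron markers lay above 1 in log2 Cy-5/Cy-3 on every array (list median 6.28), as did 8 of 8 oligodendrocyte markers (5.06). Of the proliferation markers, 7 of 8 lay below 0 on every array (list median -5.99). Among all genes, 16.3% were above 1 and 33.5% below 0 on every array. Other lists were less uniform. Above 1 on every array were 4 of 8 microglia, 4 of 6 endothelium and 3 of 9 thalamus markers, and 3 thalamus markers lay below 0 on every array. A ratio below is therefore hemibrain RNA over the Cy-3 RNA, whichever that was. Because Cy-5 held the hemibrain RNA on every array, a dye effect on a probe cannot be told apart from its ratio. The array of C10-434 was dim in Cy-5, with 49.8% of probes well above background against 68.2% to 76.9% on the other 9 arrays.

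NMDA receptors are glutamate-gated cation channels that pass calcium and are blocked by magnesium at rest, so that they open when glutamate arrives at a depolarised synapse. Each channel holds the obligatory glycine-binding subunit encoded by Grin1, joined with glutamate-binding GluN2 subunits (Grin2a to Grin2d) or with the glycine-binding GluN3 subunits (Grin3a, Grin3b), which lower calcium passage. The GluN2 subunit sets the kinetics of the channel and differs by region and age: Grin2a and Grin2b prevail in the forebrain, Grin2c in the cerebellum and Grin2d in the diencephalon and brainstem. The receptor is held at the synapse by PSD-95 scaffolds and acts through calmodulin and CaMKII.

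The upstream sequences of 3 of these genes are shown because Grin2c and Grin2d are set beside region markers and Grin1 stood apart from both in its variation over the arrays. The windows are the 250 bases before the annotated start, from RefSeq on GRCm38.p6. They lie at chr2:25319188-25319437 (minus strand) for Grin1, chr11:115267244-115267493 (minus strand) for Grin2c and chr7:45866682-45866931 (minus strand) for Grin2d. Capitals mark the GC box GGGCGG or its reverse complement CCGCCC, searched on both strands.
Grin1: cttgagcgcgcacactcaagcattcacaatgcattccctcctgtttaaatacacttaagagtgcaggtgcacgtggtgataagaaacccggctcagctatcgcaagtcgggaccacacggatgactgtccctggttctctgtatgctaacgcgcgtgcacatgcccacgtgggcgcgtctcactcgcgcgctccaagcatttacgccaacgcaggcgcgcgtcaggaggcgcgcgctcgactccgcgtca
Grin2c: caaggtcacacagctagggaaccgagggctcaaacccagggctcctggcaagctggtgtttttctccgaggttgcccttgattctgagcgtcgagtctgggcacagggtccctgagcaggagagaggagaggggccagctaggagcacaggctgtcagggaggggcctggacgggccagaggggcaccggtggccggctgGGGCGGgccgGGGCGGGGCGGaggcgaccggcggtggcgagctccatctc
Grin2d: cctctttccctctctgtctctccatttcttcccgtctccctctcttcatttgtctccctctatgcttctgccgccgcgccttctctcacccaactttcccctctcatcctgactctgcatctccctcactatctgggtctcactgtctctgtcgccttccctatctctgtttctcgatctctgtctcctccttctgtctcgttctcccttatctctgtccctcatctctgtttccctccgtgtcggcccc

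The Grin2c window held 3 GC boxes, of which the last 2 overlap, and the windows of Grin1 and Grin2d held 0. A GC box stood in 32.7% of the 32851 windows of the same length. The Grin1 window held 27 CG pairs, more than 91.4% of all windows (median 6), Grin2c 15 and Grin2d 9. The Grin3b window had 2 CG pairs and 0 GC boxes. No window was matched to Grin2a, Grin2b or Grin3a.

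Grin1, the subunit every NMDA receptor needs, lay above the Cy-3 RNA on all 10 arrays, with a log2 Cy-5/Cy-3 of 1.24 to 3.83 and a median of 2.76. That is 2.37-fold to 14.2-fold over Cy-3. On the arrays that stood alone on their slides, the log2 ratio was 3.83 (C10-413) and 3.05 (C10-437). On the first slide of 4 arrays it was 2.47 (C10-415), 3.43 (C10-416), 2.21 (C10-417) and 1.24 (C10-423), and on the second 3.80 (C10-424), 3.63 (C10-425), 2.33 (C10-434) and 2.46 (C10-435). High and low arrays thus stood side by side on both slides. The error that the scanner software gave for this probe was 0.24 to 0.41 on the log2 scale on any 1 array. The SD over the arrays was 0.843, and the range 2.58. The Cy-5 channel taken alone was as spread. The Cy-5 level, which is log2 Cy-5 signal less the 75th percentile of its array, ran from -1.98 (C10-435) to 0.77 (C10-413). This range of 2.74 was wider than that of 99.2% of the 11981 genes with a Cy-5 signal well above background on all 10 arrays, whose median range was 0.87. The Cy-3 signal of Grin1 was not well above background on the array of C10-434, and the range of the ratio was as wide without it.

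**Figure D1:**
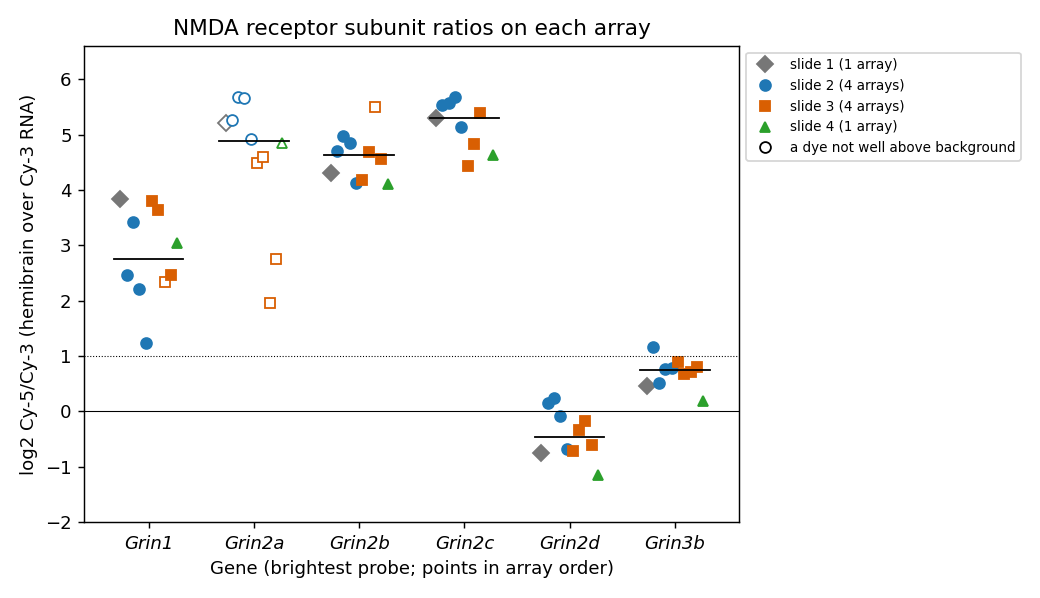
Log2 Cy-5/Cy-3 of the brightest probe of each subunit gene on each array, in array order within a gene; the bar is the median over the arrays, hollow points have a dye that was not well above background, and symbols give the slide. Grin2b and Grin2c have medians of 4.62 and 5.29, all Grin2a points are hollow, Grin1 is the most spread among the genes measured in both dyes, and Grin2d has 8 of 10 points below 0.

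Of the GluN2 subunits measured in both dyes, Grin2c and Grin2b had higher ratios to Cy-3 than Grin2d on every array with a value, and Grin2a has only a bound. Grin2c, a subunit best known from cerebellar granule cells, had a log2 ratio of 4.43 (C10-424) to 5.69 (C10-417). The median was 5.29, or 39.1-fold. Which cells gave this ratio was not tested. The 9 arrays include all but C10-435, where its spot carried an outlier flag. The deposited table holds 4.72 for that array, within the range of the others. Its Cy-5 level varied by 0.84, close to the median gene, and it was well above background in both dyes on 10 of 10 arrays.

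Grin2b, the subunit of long-lasting currents in the forebrain, had a log2 ratio of 4.11 (C10-437) to 5.51 (C10-434) with its brightest probe, A_51_P229869. The median was 4.62, or 24.6-fold. The highest value fell on the dim array, where the Cy-3 signal was not well above background, and the highest of the other 9 arrays was 4.97. The Cy-5 level of this probe varied by 1.04 over the arrays.

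The 5 Grin2b probes disagreed on the size of the ratio but not on its sign. A_52_P1044964 had a median log2 ratio of 4.21 (2.39 to 4.91), 0.60 below the brightest probe at the median, and was the lower of the pair on 9 of 10 arrays. A_51_P265765 had a median of 1.72 (0.60 to 2.41) and A_52_P248920 of 1.73 (1.05 to 2.16), lower than the brightest probe on 10 of 10 arrays by a median of 2.65 and 2.88. The fifth, A_52_P367017, had a median of 2.75, but its Cy-3 signal was well above background on only 1 of 10 arrays. All 5 probes were above 0 on 10 of 10 arrays. The 2 brightest followed each other over the arrays (r = 0.80, n = 10), and so did A_51_P265765 and A_52_P248920 (r = 0.75), while r between the brightest probe and these 2 was 0.20 and 0.37, or 0.65 and 0.60 without C10-434. These r values are descriptions over arrays that the probes share. The probe sequences and the transcripts they reach were not used here.

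**Figure D2:**
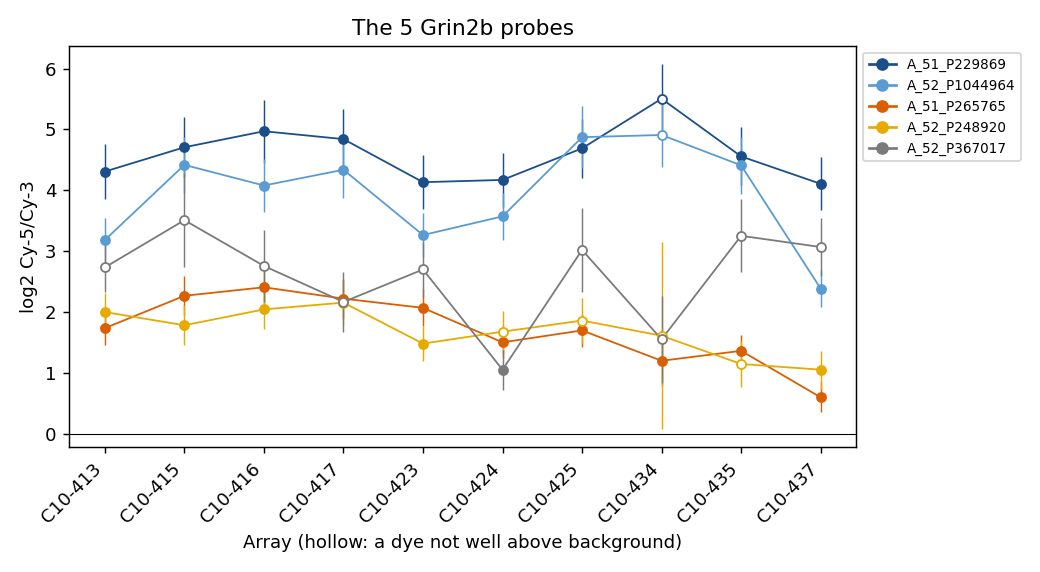
Log2 Cy-5/Cy-3 of each of the 5 Grin2b probes (lines) on the 10 arrays; error bars are the scanner software's error of the ratio and hollow points have a dye not well above background. The 2 brightest probes run between 2.39 and 5.51, and A_51_P265765 and A_52_P248920 between 0.60 and 2.41.

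Grin2a, the subunit that replaces much of Grin2b in the maturing forebrain, had a Cy-5 signal well above background on 9 of 10 arrays and a Cy-3 signal on 0 of 10. Its ratio is therefore only a lower bound. The bound was the Cy-5 value over its own Cy-3 value or the array's lowest Cy-3 value well above background, whichever was higher. Channels were taken after loess and Aquantile normalization. By this rule and processing, Grin2a was at least 4.37-fold higher in the hemibrain RNA on each of the 9 arrays. The median bound was 8.05-fold and the highest, on the array of C10-416, was 14.7-fold. These bounds depend on the background correction. The median log2 ratio of Grin2a was 0.97 with normexp and 1.65 with the background floor, each below the lowest bound (2.13 in log2). The measured log2 ratio ran from 1.96 (C10-434) to 5.68 (C10-416). It was lowest on C10-434 and C10-435, and on C10-435 the Cy-3 signal of 37.3 was the highest of the 10 while the Cy-5 level of -3.08 lay near the median of -3.11. By the same rule, A_52_P367017 of Grin2b gave a bound of at least 2.32-fold on each of 8 arrays.

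Grin2d, the subunit of the diencephalon and of interneurons, was the only subunit gene measured here whose median lay below 0. Its log2 ratio was -1.15 (C10-437) to 0.24 (C10-416), with a median of -0.47. It was below 0 on 8 of 10 arrays, and on 5 of 10 arrays it differed from 0 by over 2 times the software's error. It was well above background in both dyes on all 10 arrays. Grin3b, the GluN3 subunit best known from motor neurons, had a log2 ratio of 0.19 (C10-437) to 1.17 (C10-415), with a median of 0.74, or 1.68-fold. It was above 0 on 10 of 10 arrays and above 1 on 1 of 10. On 9 of 10 arrays it differed from 0 by over 2 times the software's error. On C10-437 the error of 0.22 exceeded the ratio.

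Grin1, Grin2a, Grin2b and Grin2c, 4 of the 6 genes, had a log2 ratio above 1 on every array with a value. Of all 18357 genes with at least 8 values, 16.3% did. Among the 11981 genes whose Cy-5 signal was well above background on all 10 arrays this share was 23.2%. Grin2a counts through a ratio in which Cy-3 is at background, and its bound was above 1 on 9 of 10 arrays. Grin2b counts through its brightest probe. Its probe A_51_P265765, well above background in both dyes on all 10 arrays, was above 1 on 9 of 10 (0.60 on C10-437). Grin2d and Grin3b did not reach the limit. Grin2a has no place in an order of ratios. Of the rest, Grin2c was above the brightest Grin2b probe on 8 of 9 arrays, by -0.12 to 1.01, so that this pair was not separated on every array. The brightest Grin2b probe was above Grin1 on 10 of 10 arrays by 0.37 to 3.17, but the mean of the 5 Grin2b probes was above Grin1 on only 5 of 10, by -1.40 to 1.49, so the place of Grin2b depends on the probe. Grin1 was above Grin3b on 10 of 10 by 0.46 to 3.37, and Grin3b above Grin2d on 10 of 10 by 0.27 to 1.61. This is an order of ratios to the Cy-3 RNA, not of transcript levels between genes.

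The slides could be compared as a technical batch, with 4 arrays on each of 2. None of the 9 subunit probes tested passed limma's test between these slides at an adjusted p under 0.05, where 0.0744% of 40299 probes passed. At an unadjusted p under 0.05 there were 2 of 9, against 10% of all probes. One was Grin2b A_51_P265765, with 2.07 to 2.41 on the first slide and 1.20 to 1.70 on the second (difference -0.80, SE 0.17, limma adjusted p = 0.122). In the Cy-5 channel alone this probe differed the other way, by 0.28 (SE 0.22). With normexp it differed by -0.01 and with the background floor by -0.11. The other was Grin2a, whose measured ratio over a Cy-3 signal at background differed by -1.93 (SE 0.56, limma adjusted p = 0.252). For each of these probes the slides did not overlap. The share of all probes without overlap was not worked out. In the Cy-5 channel alone Grin2a differed by -0.35 (SE 0.31), with normexp by -0.21 and with the background floor by -0.39. The brightest Grin2b probe differed by 0.07 (SE 0.30) and Grin1 by 0.72 (SE 0.50), with overlapping slides. Grin2c was left out of this fit for its missing value. With probes of at least 3 values a slide kept, a fit chosen after seeing the data, it differed by -0.60 (SE 0.26, limma adjusted p = 0.50). Whether the mice on the slides differed in diet cannot be told apart from the slide.

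Grin1 shared its pattern of Cy-5 levels with more genes than the other subunit genes compared did. The number for a typical gene was not worked out. Of 11292 genes, 309 had a Pearson r above 0.9 with it over the 10 arrays, against 8 for Grin2b, 51 for Grin2c (9 arrays), 15 for Grin2d and 13 for Grin3b. The closest to Grin1 were Lrrc4b, a synaptic adhesion protein (r = 0.992), and Ddb1, a DNA damage-binding protein (r = 0.990). For Grin2b they were Lpcat2 (0.961) and Amhr2 (0.956), for Grin2c Bcorl1 (0.980) and Plk1 (0.974), for Grin2d Pcdh1 (0.983) and Olfr668 (0.976), and for Grin3b Gpc3 (0.971) and Rfwd3 (0.949). These are the highest of many values, over few arrays that all genes share, and are given as a description. Without the dim array of C10-434 the r of these pairs was 0.953 to 0.991.

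**Figure D3:**
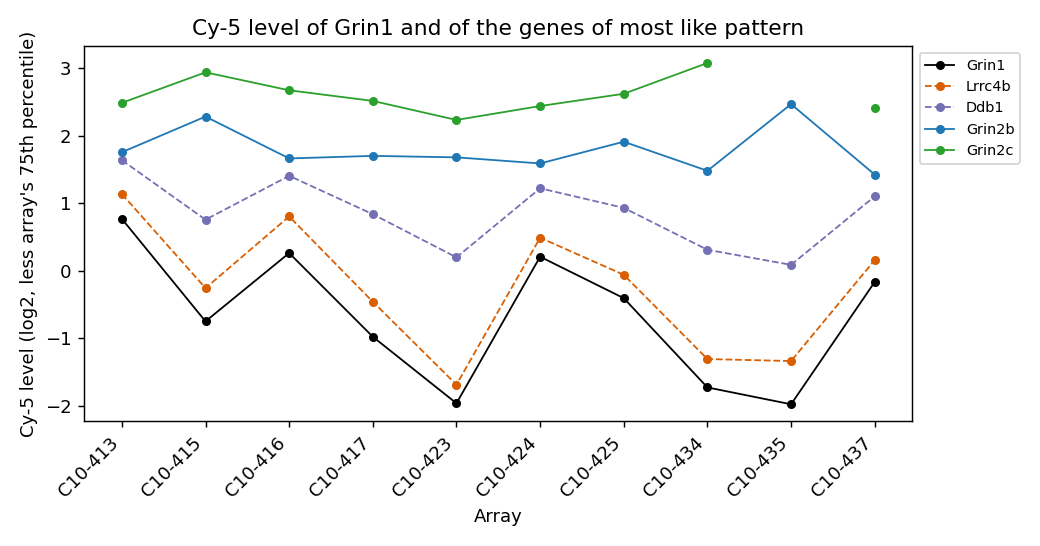
Cy-5 level (log2 signal less the array's 75th percentile) on each of the 10 arrays for Grin1, Lrrc4b, Ddb1, Grin2b and Grin2c. Grin1 runs from -1.98 to 0.77 with Lrrc4b and Ddb1 following it, while Grin2b runs from 1.42 to 2.46.

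The subunits differ by brain region, so the ratios of 5 subunit genes were set beside marker lists of the cerebellum (4 genes), the cortex and hippocampus (8), the thalamus (9) and the striatum (9), each list as the median deviation of its genes from their own medians. These are the genes with a value and a Cy-5 signal well above background on all 10 arrays, which left out 8 of 12 cerebellum and 2 of 10 cortex and hippocampus markers. The cerebellum list is then Cbln1, Pcp2, Rgs8 and Calb2. Of the cerebellum markers left out, Gabra6 and Cbln3 were well above background in Cy-5 on 1 of 10 arrays each and Fat2 on 0 of 10. Zic2 and Grm4 were so on 7 of 10 each, and Neurod1 and Car8 on 9 of 10 each. Zic1 was so on 10 of 10 but had a value on only 9. In bulk RNA, fewer cells of a type and less RNA per cell cannot be told apart. Grin2a was left out because its ratio is a bound. The cerebellum list and the cortex and hippocampus list lay on the same side of 0 on every array. For instance, their deviations were 0.44 and 0.28 on C10-417 and -0.33 and -0.30 on C10-424. A subunit gene's relations with these lists cannot be read as separate links to regions. The r between lists was not worked out. With the 10 pairs of subunit genes this made 30 relations, of which 8 passed at an adjusted p under 0.05.

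Grin2d varied with the striatum markers (r = 0.905, permutation p = 0.00048, adjusted p = 0.0112, n = 10; Spearman's rho = 0.77, permutation p = 0.013). Its relation with the cortex and hippocampus markers was as close (r = 0.90, permutation p = 0.00075, adjusted p = 0.0112, n = 10; rho = 0.83, permutation p = 0.00491). Of the genes well above background in Cy-5, 0.292% and 0.115% had an r at least as high with these lists. Without the 2 arrays farthest from the list's median, r was 0.811 and 0.879. Its r with the thalamus markers was 0.683 (permutation p = 0.0214, adjusted p = 0.0584, n = 10; rho = 0.588, permutation p = 0.0813), and 0.30 without the 2 farthest arrays.

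Grin2b moved with the cerebellum markers (r = 0.837, permutation p = 0.00244, adjusted p = 0.0244, n = 10; rho = 0.855, permutation p = 0.00294). An r this high was found in 0.744% of genes, and r was 0.938 without the 2 farthest arrays. All relations of Grin2b use its brightest probe, whose Cy-3 signal was not well above background on C10-434. Without that array r with the cerebellum markers was 0.831. The other Grin2b probes, which followed this one to differing degrees, and the Cy-5 level alone were not set beside the lists. Grin2c moved with the cortex and hippocampus markers (r = 0.839, exact permutation p = 0.00677, adjusted p = 0.0485, n = 9; rho = 0.933, exact permutation p = 0.00075), as did 1.20% of genes at least as closely, and r was 0.646 without the 2 farthest arrays. Its r with the cerebellum markers was 0.773 (exact permutation p = 0.0164, adjusted p = 0.0547, n = 9; rho = 0.817, exact permutation p = 0.0108), with 0.546 without the 2 farthest arrays.

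The other relations that passed were Grin2b with the cortex and hippocampus list (r = 0.778) and with Grin2d (r = 0.753), Grin2c with the striatum list (r = 0.778) and Grin2d with the cerebellum list (r = 0.75). Their permutation adjusted p-values were 0.0485 to 0.0491, their Spearman adjusted p-values 0.0294 to 0.0389, and r without the 2 farthest arrays 0.689 to 0.797. An r at least as high with the list was found in 2.16% of genes for Grin2b, 4.2% for Grin2c and 3.39% for Grin2d. A slide holds at most 4 arrays, too few for a value of its own. With each slide's mean subtracted over the 2 slides of 4, the 8 relations had r of 0.609 to 0.953, and without C10-434 r of 0.757 to 0.915. Grin1 (r of -0.404 to 0.281) and Grin3b (r of -0.342 to 0.535) passed none of theirs, the smallest unadjusted permutation p being 0.107. With the slide means subtracted, though, r of Grin1 was 0.887 with the thalamus list and 0.526 with the striatum list (8 arrays). Over all 10 arrays it was 0.281 and 0.041. The 8 arrays also leave out C10-413 and C10-437, and whether their loss or the subtraction moved r was not tested. The ratios of a member and of a list come from the same array and share its Cy-3 RNA, and what part that plays in these relations was not tested.

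**Figure D4:**
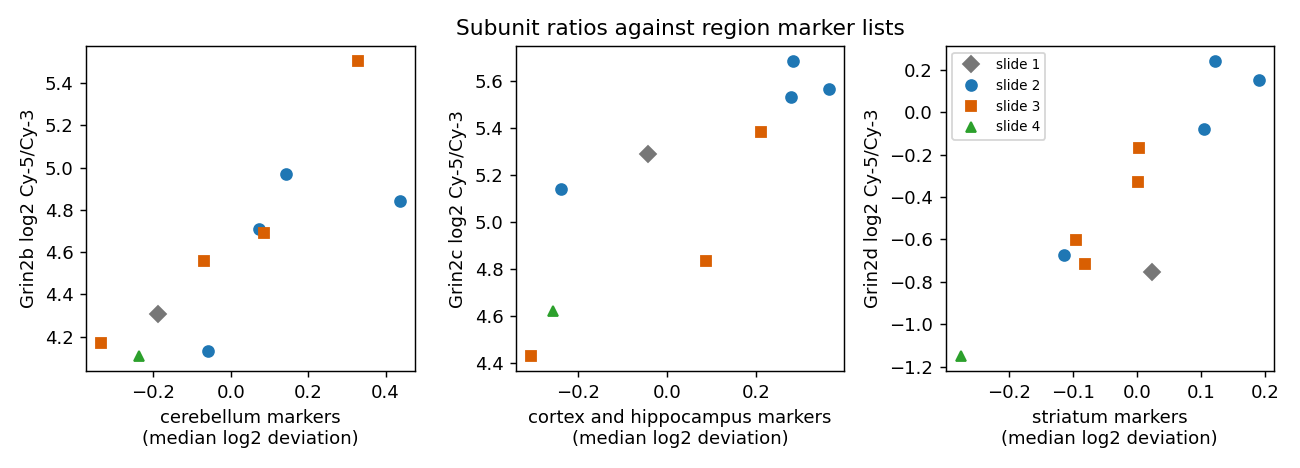
Log2 Cy-5/Cy-3 of Grin2b (brightest probe), Grin2c and Grin2d against the median deviation (log2) of the cerebellum, the cortex and hippocampus, and the striatum markers, 1 point per array and symbols by slide. The points rise from lower left to upper right in each panel (r = 0.837, 0.839 and 0.905).

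The proteins that feed, hold and follow the receptor were described by a list of 37 partner genes, of which 34 had a probe with at least 8 values. Of these, 20 had a log2 ratio above 1 on every array and 2 lay below 0 on every array, against 16.3% and 33.5% of all genes. The median of their medians was 3.29, and that of all genes 0.06. All 5 genes of glutamate loading and uptake were above 1 on every array, from Slc17a7, the vesicular transporter of cortical glutamate neurons (median 4.10), to Slc1a2, the main astrocytic uptake carrier (median 10.05). Of the 4 genes of co-agonist supply and removal 1 was, Slc7a10, the D-serine carrier (median 4.66), and the lowest was Dao, which degrades D-serine (median 0.39).

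Of 11 scaffold and trafficking genes, 7 were above 1 on every array. The highest was Dlg2, which encodes PSD-93 (median 5.58), and the lowest Cask, a membrane-associated scaffold (median -0.12). Of 8 kinases and phosphatases, 3 were. Camk2b, a CaMKII subunit, had the highest median (5.52), and Csk, the kinase that restrains Src, the lowest (-0.32) and was below 0 on every array. Of 6 genes of downstream calcium signalling, 4 were, with Rasgrf1, a calmodulin-dependent Ras activator, highest (median 5.78). Creb1, the calcium-responsive transcription factor, was below 0 on every array (median -0.70). None of the 33 partner probes tested passed limma's slide comparison, in which 0.0744% of all probes passed, and 1 had an unadjusted p under 0.05.

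**Figure D5:**
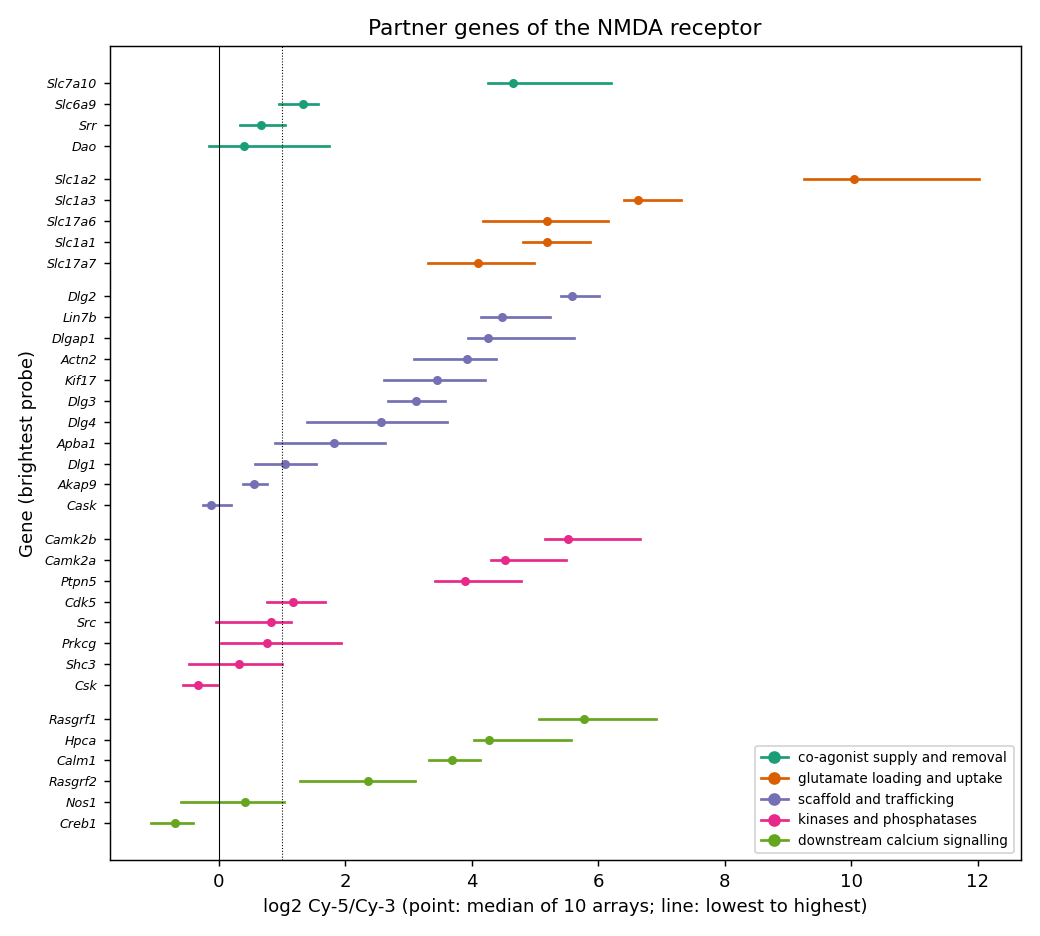
Log2 Cy-5/Cy-3 of the 34 partner genes by role, with the median (point) and the range (line) over the arrays; the dotted line marks 1. All 5 genes of glutamate loading and uptake lie right of the dotted line, and Csk and Creb1 lie left of 0 on every array.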

How the data were processed

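RNA of 10 left hemibrains was hybridised in Cy-5 against a second RNA in Cy-3. The authors deposited the Feature Extraction 10.10.1.1 output of each array: linear intensities (median, background, background-subtracted and processed, that is background-corrected and dye-normalized, signals), the log10 ratio of each spot, an error score for that ratio from the software, and flags. The authors also deposited a table of log2 values. Set against the arrays' own log ratios, these were log2 Cy-5/Cy-3 (r over probes of at least 0.997 on every array).

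The ratio used throughout is log2 of the processed Cy-5 signal over the processed Cy-3 signal. Control and outlier-flagged spots were left out and the spots of a probe averaged. Probes were named by RefSeq accession (27198 of 41174 probes, or 66.1%, matched a gene; GRCm38.p6, used for names). A gene was represented by its brightest probe. A probe was well above background when that flag was set on a share of 0.5 or more of its spots. No spot was saturated (0 of 43379 spots per array in either dye). The number of arrays limits the precision. Slides were compared with limma 3.58.1 in R 4.3.3 and Benjamini-Hochberg adjustment, after a check on simulated data, and correlations with 2-sided permutation tests (100000 permutations for 10 arrays, exact for 9). The arrays may not be replicates of 1 group, so the limma p-values rest only on the spread between these arrays. The permutation p-values take every order of the arrays as equally likely, which unsettled diets and the slides may not allow. The alternatives were other normalizations and background corrections, other probe filters, the authors' table, and arrays left out. The named genes were all subunit probes, the partner gene with the highest and with the lowest median in each role, and the 2 genes most like each subunit gene. The subunit genes, the gene lists and the tests were chosen with earlier results of these data known.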

Additional observations from a re-analysis of the deposited data

Results flagged for a closer look

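In 20 measures (log2 ratio and Cy-5 level of each of the 10 subunit probes), the gap between the extreme array and its neighbour was tested against Dixon's 95% limit, which chance passes in about 1 in 20 groups. It was passed by 1. The Cy-5 level of Grin2b probe A_52_P367017 was -3.16 on the array of C10-434 and -4.47 to -3.84 on the other 9 arrays (gap over range 0.519). The probe was not well above background in either dye on that array.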

How the results depend on the processing

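The count of 4 subunit genes above 1 in log2 ratio on every array was 3 or 4 under 7 of 9 alternatives. It was 1 under normexp background correction, and 1 with probes well above background in both dyes on every array, where only 3 of the subunit genes were left. Of the medians of the subunit genes, 41 of 50 alternative values moved by less than the SD over the arrays, and none changed sign. Under normexp the medians were 1.44 for Grin1, 0.97 for Grin2a, 3.54 for Grin2b, 4.04 for Grin2c, -0.00095 for Grin2d and 0.44 for Grin3b. The mean over all its probes brought Grin2b to 2.95. The 30 probes called between slides became 0 under normexp and under the background floor, 68 among probes well above background in Cy-5 and 2704 in Cy-5 alone. They fell to between 0 and 18 with 1 array left out (18 without C10-423, 2 without C10-415, 0 without each of the other 6). No subunit probe was called in any of these fits, the smallest limma adjusted p being 0.0698, though the sign of the difference turned for Grin1, Grin3b and the Grin2b probes in some, and that of Grin2a shrank from -1.93 to -0.21 under normexp, -0.39 under the background floor and -0.35 in Cy-5 alone. No paired analysis was possible because no array had a settled group. What causes these changes was not tested.

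Depth is limited by signal over background: the ratio of Grin2a is a bound on 9 arrays and no measure on that of C10-434, and that array measured Grin1 and the brightest Grin2b probe in Cy-5 alone.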
